A study of Mus musculus with 3 samples.

Results

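The protein kinase C (PKC) and protein kinase D (PKD) isoforms are described here as 10 genes, taken by their symbols out of the 24421 genes in a table of RNA sequencing read counts. They are the classical isoforms Prkca and Prkcb, the calcium-independent nPKC isoforms Prkcd, Prkce and Prkch, the atypical isoforms Prkci and Prkcz, and the PKD genes Prkd1, Prkd2 and Prkd3. The cells were JB6 P+, a mouse epidermal line that phorbol ester can transform, which the labels give as epithelial cells from skin. There were 3 libraries of total RNA, 1 from each group: JB6 P+ cells given 10 ng/mL TPA plus 50 nM CDDO, JB6 P+ cells given 10 ng/mL TPA, and control JB6 P+ cells. TPA is the phorbol ester 12-O-tetradecanoylphorbol-13-acetate, and CDDO is a synthetic triterpenoid. Treated cells were dosed on alternate days for 5 days, with serum at 1%. The serum, duration and vehicle of the control culture are not given in the sources used here, so TPA and these conditions cannot be told apart in a difference from control.

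PKC isoforms are serine/threonine kinases switched on at membranes. Classical and nPKC isoforms, and the PKDs, carry C1 domains that bind the lipid messenger diacylglycerol, and TPA binds the same pocket as a long-lived mimic. Classical isoforms also need calcium, whereas the C1 domain of the atypical isoforms binds neither diacylglycerol nor phorbol ester. In skin these kinases are known as the receptors through which phorbol esters promote tumours, and prolonged exposure is known to deplete several PKC proteins, a level of control that RNA counts do not measure. The comparison of the 8 phorbol ester receptors among the isoforms with the 2 atypical isoforms asks whether their transcripts differed in step with the ligand.

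The CDDO+TPA, TPA and control libraries held 7872089, 7813035 and 8190078 reads assigned to genes. CPM values are reads scaled to a common library size, and the 13100 genes that reached 1 CPM in any library were compared. With 1 library a group there is no spread between cultures and no test, and all intervals below are 95% intervals of counting error only. The size rule asked for a difference of at least 2-fold (1 on the log2 scale) with a counting interval that left out a ratio of 1. The median log2 fold change of all compared genes was 0.00 for TPA over control, 0.01 for CDDO+TPA over TPA and -0.02 for CDDO+TPA over control. Of 12 keratinocyte markers, 7 had at most 3 reads over all libraries, among them Krt5, Krt14, Epcam and Trp63. Itga6, an integrin of basal keratinocytes and other cells, had 158, 91.4 and 86.2 CPM in the CDDO+TPA, TPA and control libraries. It made up most of the keratinocyte sum of 167, 103 and 101 CPM. Krt10 had 52 reads (6.59 CPM) in the CDDO+TPA library, 73 reads (9.16 CPM) in the TPA library and 104 reads in control. Of 10 mesenchymal markers 9 reached 1 CPM. The summed mesenchymal markers stood at 1260, 1070 and 1740 CPM in the same libraries, so most keratinocyte markers were near 0 beside abundant mesenchymal ones, which goes against the epithelial label in part. Of 8 leukocyte markers 2 passed 1 CPM, Ptprc had 0 reads throughout, and the list summed to 72.2, 56.1 and 23.1 CPM, nearly all of it Cd68 at 71.2, 52.2 and 22.1 CPM. Of the endothelial list 1 of 4 passed, with sums of 1.14, 2.13 and 0.749 CPM, and of the melanocyte and Schwann list 2 of 4, with sums of 37.1, 17.3 and 27.2 CPM. Nearly all of the latter was Mitf, at 35.2, 15.9 and 25.3 CPM, and Sox10 had 0 reads throughout. The 5 proliferation genes, Mki67 among them, summed to 1190 CPM in the CDDO+TPA library, 197 CPM in the TPA library and 447 CPM in control, and the part of this difference in the isoform values below was not tested.

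The promoters of Prkca and Prkd2 are shown because, among the abundant isoforms, these genes had the highest and the lowest ratio of the CDDO+TPA to the TPA library. Each line holds the 250 bases before the RefSeq transcription start (GRCm38.p6) that equals the first exon base in the deposited mm10 table, read 5′ to 3′ on the strand of the gene.
Prkca (chr11:108343889-108344138, minus strand): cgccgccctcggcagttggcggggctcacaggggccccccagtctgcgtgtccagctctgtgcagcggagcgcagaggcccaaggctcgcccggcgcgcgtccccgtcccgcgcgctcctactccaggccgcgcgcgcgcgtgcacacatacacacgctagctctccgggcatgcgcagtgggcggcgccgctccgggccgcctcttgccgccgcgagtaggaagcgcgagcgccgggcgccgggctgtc
Prkd2 (chr7:16842652-16842901, plus strand): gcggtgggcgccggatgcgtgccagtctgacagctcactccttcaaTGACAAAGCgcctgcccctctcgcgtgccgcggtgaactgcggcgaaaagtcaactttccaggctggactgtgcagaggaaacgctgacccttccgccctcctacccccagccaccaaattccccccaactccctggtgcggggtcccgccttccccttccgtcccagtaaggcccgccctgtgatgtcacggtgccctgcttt
The capitals mark the only match in these lines to either motif searched. The motifs were TGANTCA, the phorbol ester response element bound by AP-1, and TGACNNNGC, the core of the antioxidant response element bound by NRF2, which CDDO-type compounds are known to activate. Both strands were read over windows of 300 bases, and a stretch can match both motifs. The RefSeq table used held 13 such windows for 8 of the 10 genes, and Prkce and Prkch were not matched. None of the 13 held TGANTCA, which 7.81% of all 32851 mouse windows held. The NRF2 core was found in 1 of the 13, against 12.4% of all windows, as TGACAAAGC starting at position -204 of Prkd2, counted back from its transcription start. A match is a run of letters and not a shown binding site, and the windows leave out distal elements.

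Nearly all reads of the 10 genes came from 6 of them: Prkca, Prkcd, Prkce, Prkci, Prkd1 and Prkd2 each had at least 176 reads in every library. Prkch, which encodes the PKC eta of differentiating keratinocytes, had 0 reads in each of the 3 libraries, where a floor of 3 counts lies at 0.380, 0.377 and 0.374 CPM. Prkcb, the PKC beta abundant in lymphocytes and neurons, had 1, 0 and 1 reads in the CDDO+TPA, TPA and control libraries. These genes stayed below 1 CPM and were not compared, which left 8 of the 10 members. Prkcz, the atypical PKC zeta, had 12, 19 and 14 reads, and the counting intervals of its CPM overlapped in all 3 libraries. Prkd3 had 1, 11 and 4 reads in the CDDO+TPA, TPA and control libraries. In the deposited table no exon of any other gene overlapped the exons of the 10 members.

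**Figure D1:**
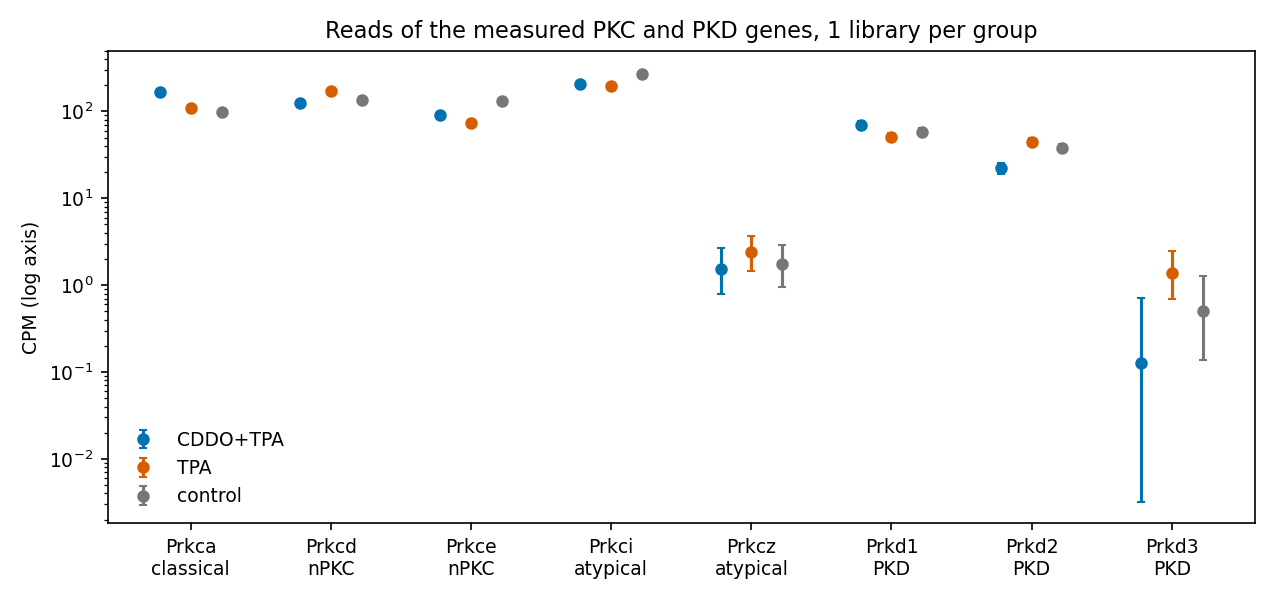
CPM on a log axis for the 8 compared PKC and PKD genes in the CDDO+TPA, TPA and control libraries, with 95% Poisson intervals of counting error as bars (1 library per group). Prkca, Prkcd, Prkce, Prkci, Prkd1 and Prkd2 lie between 22.3 and 272 CPM, while Prkcz and Prkd3 stay below 2.5 CPM.

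Levels between genes were set side by side per length, as RPKM, which is CPM divided by the exon length in kilobases. In control the order was Prkci at 60.8 RPKM, Prkcd at 49.3, Prkce at 21.1, Prkd1 at 15.4, Prkca at 11.9 and Prkd2 at 10.1 RPKM. The counting intervals of neighbours in that order did not overlap, except those of Prkca (11.0 to 12.7) and Prkd2 (9.03 to 11.3). In the TPA library Prkcd led at 61.2 RPKM, followed by Prkci at 43.8, and Prkd1, Prkca, Prkce and Prkd2 followed between 13.4 and 11.8 RPKM with overlapping intervals. In the CDDO+TPA library Prkci at 45.9 RPKM and Prkcd at 45.0 RPKM could not be separated by their intervals, Prkca at 19.8 and Prkd1 at 18.7 RPKM likewise, and Prkce and Prkd2 came last at 14.4 and 5.94 RPKM. Thus the atypical Prkci led in control, the nPKC gene Prkcd led in the TPA library, and the classical Prkca was above Prkce by more than the counting intervals in the CDDO+TPA library. Counted in reads without the length, Prkci led in every library.

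The make-up of the listed isoforms followed from these levels. Prkci held 36.6% of the summed PKC level per length in the CDDO+TPA library (interval 35.2 to 38.0), 33.5% in the TPA library (32.2 to 34.9) and 42.4% in control (41.0 to 43.8). Prkcd held 35.9% (34.2 to 37.5), 46.9% (45.3 to 48.5) and 34.4% (32.9 to 35.9) of it. The share of Prkcd thus stood out in the TPA library, and its intervals in the other libraries overlapped. Prkca held 15.8%, 10.2% and 8.26% of the PKC level in the CDDO+TPA, TPA and control libraries, and Prkce held 11.5%, 9.02% and 14.7%. Prkcz held at most 0.393% in any library. Within the PKD level, Prkd1 held 75.9% in the CDDO+TPA library (72.6 to 78.9), 52.7% in the TPA library (49.1 to 56.3) and 60.1% in control (56.6 to 63.6), and nearly all the rest was Prkd2.

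**Figure D2:**
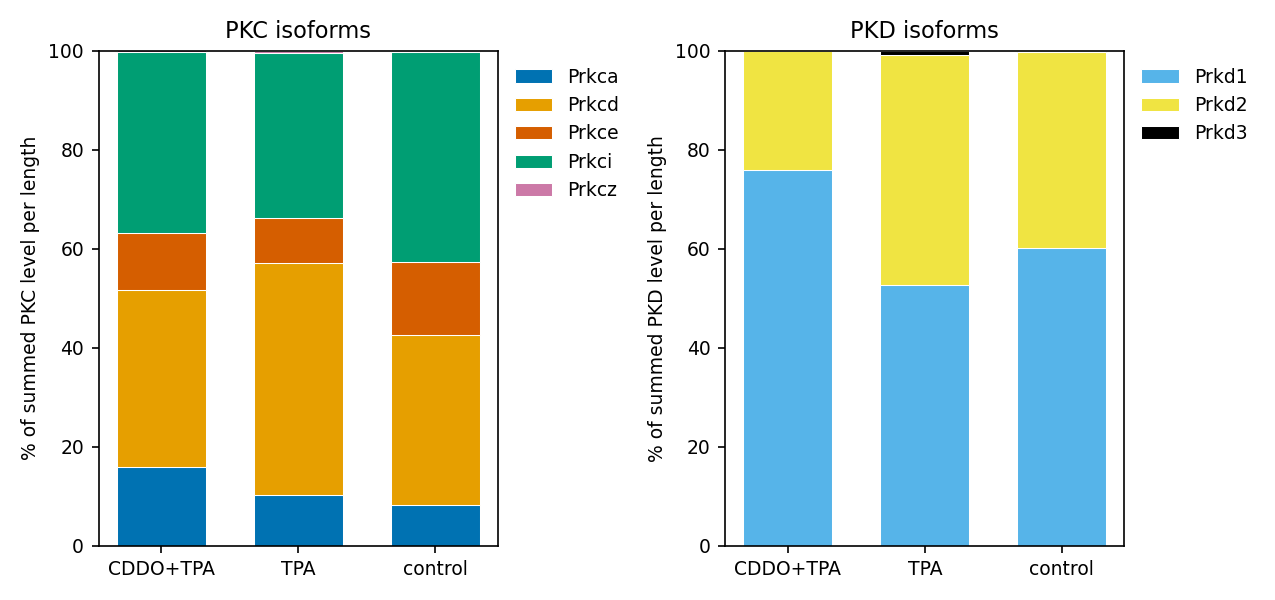
Share (%) of each isoform in the summed RPKM of the 7 PKC genes (left) and of the 3 PKD genes (right) in the CDDO+TPA, TPA and control libraries, leaving out Prkcb and Prkch, whose shares were at most 0.0114%. Prkcd takes 46.9% of the PKC level in the TPA library, and Prkd1 takes 75.9% of the PKD level in the CDDO+TPA library.

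In the comparison of TPA with control, none of the 8 compared members passed the size rule in either direction, against 9.57% of all compared genes that were higher and 5.91% that were lower. The largest difference among the 6 abundant isoforms was in Prkce, and the receptors did not lie on one side of control. The median of the 8 was a log2 fold change of 0.19. It takes in Prkd3 (1.12) and Prkcz (0.40), which had few reads, so no direction is read from it. The 6 abundant isoforms ran from -0.84 (Prkce) to 0.31 (Prkcd).

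Prkce encodes PKC epsilon, an nPKC known as an oncogenic isoform in mouse skin (chromosome 17, 86167785 to 86657919, plus strand). It had 73.7 CPM in the TPA library (587 reads) and 132 CPM in control (1058 reads). It was 1.79-fold lower (1.62 to 1.99) in the TPA library, short of the size rule, with a log2 fold change of -0.84. Prkcd encodes PKC delta, an nPKC known for pro-apoptotic and growth-restraining roles in keratinocytes (chromosome 14, 30595354 to 30626208, minus strand). It had 170 CPM in the TPA library (1353 reads) and 137 CPM in control (1097 reads), a ratio of 1.24 (1.14 to 1.34). The 2 abundant nPKC isoforms therefore lay on opposite sides of control. Their read ratio within a library does not depend on scaling, and Prkcd over Prkce was 2.30 in the TPA library (2.09 to 2.54) and 1.04 in control (0.952 to 1.13), a 2.22-fold difference (1.95 to 2.53).

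Prkca, the classical PKC alpha (chromosome 11, 107933387 to 108343888, minus strand), had 111 CPM in the TPA library (886 reads) and 99.2 CPM in control (795 reads), a 1.12-fold difference (1.02 to 1.24). Prkci, the atypical PKC iota of the cell polarity complex (chromosome 3, 30995771 to 31052740, plus strand), had 195 CPM in the TPA library (1557 reads) and 272 CPM in control (2177 reads). It was 1.39-fold lower (1.30 to 1.48) in the TPA library, so the only abundant isoform that does not bind TPA was lower, as was the receptor Prkce. Prkd1, the founding PKD (chromosome 12, 50341232 to 50649223, minus strand), had 50.7 CPM in the TPA library and 58.2 CPM in control, 1.15-fold lower (1.00 to 1.31). Prkd2 (chromosome 7, 16842902 to 16870461, plus strand) had 44.4 CPM in the TPA library and 38.1 CPM in control, with a ratio of 1.17 (0.999 to 1.37). For the low genes Prkcz and Prkd3 the ratios were 1.37 (0.649 to 2.94) and 2.77 (0.820 to 11.9), so no difference was detectable at this depth.

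**Figure D3:**
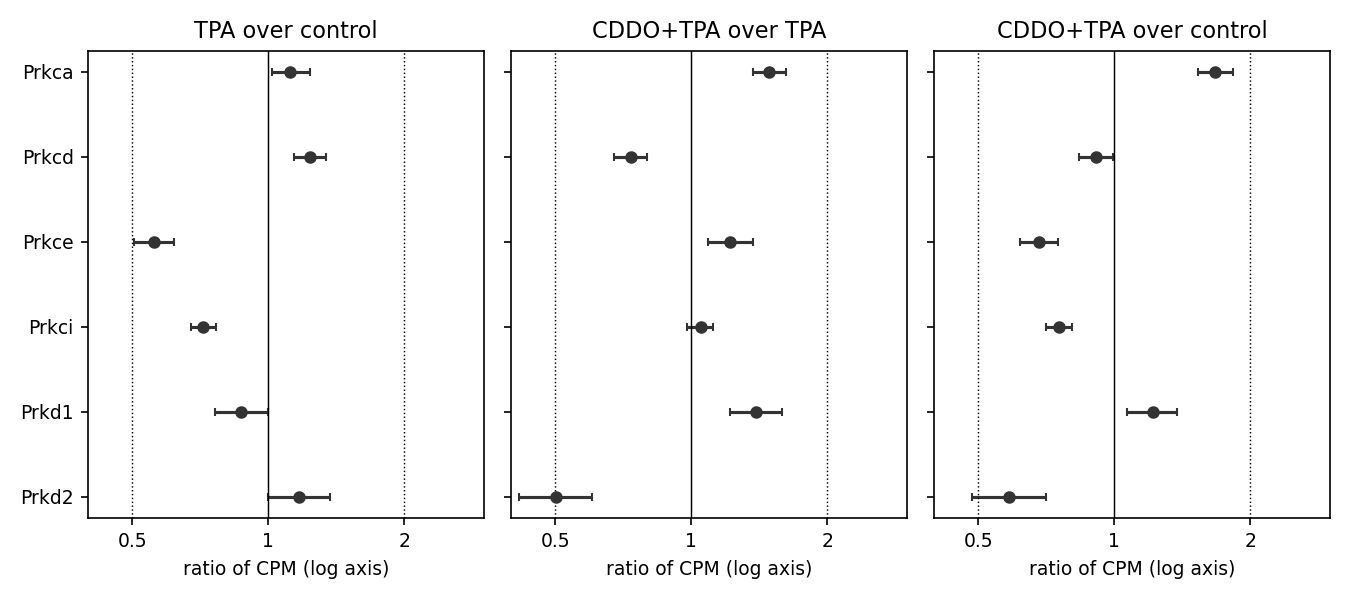
Ratio of CPM on a log axis for the 6 abundant isoforms in TPA over control, CDDO+TPA over TPA and CDDO+TPA over control, with 95% counting intervals as bars and dotted lines at 0.5 and 2. The ratio of Prkce is 0.558 for TPA over control, that of Prkd2 is 0.502 for CDDO+TPA over TPA, and that of Prkca is above 1 in all panels.

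The CDDO+TPA library was next set against the TPA library. One of the 8 compared members, Prkd3, passed the size rule downward, against 7.78% of all compared genes. None passed upward, against 7.87%. The median of the 8 was a log2 fold change of -0.19. It takes in Prkd3 (-2.11) and Prkcz (-0.57), which had few reads, so no direction is read from it. The abundant isoforms ran from -0.99 (Prkd2) to 0.57 (Prkca). The call on Prkd3 rested on 1 read in the CDDO+TPA library and 11 reads in the TPA library, a ratio of 0.0918 with an interval of 0.00213 to 0.631, and Prkd3 was the lowest of the PKDs in both. Prkd3 entered the comparison only through the TPA library, where it had 1.38 CPM, so the filter favoured this direction and nothing is read from the call. Its log2 fold change of -2.11 was -2.93 with a prior count of 0.5 and -1.41 with 5.

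Prkd2, a PKD known from lymphocytes and endothelium, had 22.3 CPM in the CDDO+TPA library (176 reads) and 44.4 CPM in the TPA library (354 reads). It was 1.99-fold lower (1.66 to 2.40), and its log2 fold change of -0.99 fell just outside the size rule and reached -1.01 with total-count or upper-quartile scaling. Prkd1 had 70.7 CPM in the CDDO+TPA library (558 reads) and 50.7 CPM in the TPA library (404 reads), 1.39-fold higher (1.22 to 1.59). The PKD sum was nearly equal, at 93.1 CPM in the CDDO+TPA library and 96.5 CPM in the TPA library, while its make-up differed. Prkd1 over Prkd2 was 3.17 in the CDDO+TPA library (2.67 to 3.78) and 1.14 in the TPA library (0.987 to 1.32), a 2.78-fold difference (2.21 to 3.49).

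Among the PKC genes, Prkca had 166 CPM in the CDDO+TPA library (1308 reads) and 111 CPM in the TPA library (886 reads), and was 1.49-fold higher (1.37 to 1.62). Prkcd had 125 CPM in the CDDO+TPA library (985 reads) and 170 CPM in the TPA library (1353 reads), and was 1.36-fold lower (1.25 to 1.48). The read ratio of Prkca over Prkcd was 1.33 in the CDDO+TPA library (1.22 to 1.44) and 0.655 in the TPA library (0.601 to 0.713), a 2.03-fold difference (1.80 to 2.29). Its size within a library depends on exon length. Per length, Prkcd stayed above Prkca, at 45.0 and 19.8 RPKM in the CDDO+TPA library and 61.2 and 13.3 RPKM in the TPA library. Prkce had 90.1 CPM in the CDDO+TPA library (711 reads) and 73.7 CPM in the TPA library (587 reads), 1.22-fold higher (1.09 to 1.37). Prkci had 205 CPM in the CDDO+TPA library and 195 CPM in the TPA library, a ratio of 1.05 (0.977 to 1.12). The atypical Prkci was thus the abundant isoform for which the interval of CDDO+TPA over TPA included 1. The ratio of Prkcz was 0.637 (0.282 to 1.38), which also included 1.

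Set against control, the CDDO+TPA library had none of the 8 compared members past the size rule, against 8.02% of all compared genes that were higher and 3.37% that were lower. The median of the 8 was a log2 fold change of -0.29. This comparison shares a library with each of the others. Prkca stood highest, with 166 CPM in the CDDO+TPA library and 99.2 CPM in control, a 1.67-fold difference (1.53 to 1.83). Prkd1 was 1.22-fold higher (1.07 to 1.38). Prkd2 had 22.3 CPM in the CDDO+TPA library and 38.1 CPM in control, 1.71-fold lower (1.41 to 2.07). Prkce was 1.47-fold lower (1.33 to 1.61) and Prkci 1.33-fold lower (1.24 to 1.42), so both stayed below control with CDDO present. Prkcd had 125 CPM in the CDDO+TPA library and 137 CPM in control, a ratio of 0.912 (0.836 to 0.994). For Prkcz the ratio was 0.870 (0.368 to 2.03) and for Prkd3 it was 0.254 (0.00515 to 2.57), with 1 read in the CDDO+TPA library and 4 reads in control.

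Summed over genes, the classical and nPKC isoforms of the list had 3005 reads in the CDDO+TPA library, 2826 in the TPA library and 2951 in control. The atypical isoforms had 1629, 1576 and 2191 reads, nearly all from Prkci. Classical and nPKC reads per atypical read were 1.84 in the CDDO+TPA library (1.74 to 1.96), 1.79 in the TPA library (1.69 to 1.91) and 1.35 in control (1.27 to 1.42). This ratio differed by 1.33-fold (1.22 to 1.45) between TPA and control and by 1.03-fold (0.943 to 1.12) between CDDO+TPA and TPA. Sums of reads give more weight to genes with long exons. Per length, the classical and nPKC sums were 79.2, 86.3 and 82.3 RPKM in the CDDO+TPA, TPA and control libraries. The atypical sums were 46.2, 44.3 and 61.2 RPKM, so the ratio per length was higher in the TPA library than in the CDDO+TPA library. With the PKDs included, the 8 receptors gave 2.30 reads per atypical read in the CDDO+TPA library (2.17 to 2.43), 2.28 in the TPA library (2.15 to 2.42) and 1.70 in control (1.61 to 1.79). The sums of classical and nPKC reads spanned a narrow range, and the difference of the treated libraries from control lay in the reads of Prkci. The PKDs over the atypical isoforms gave 0.451 in the CDDO+TPA library, 0.488 in the TPA library and 0.354 in control, and the interval of control (0.325 to 0.384) lay below those of the treated libraries, which overlapped.

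**Figure D4:**
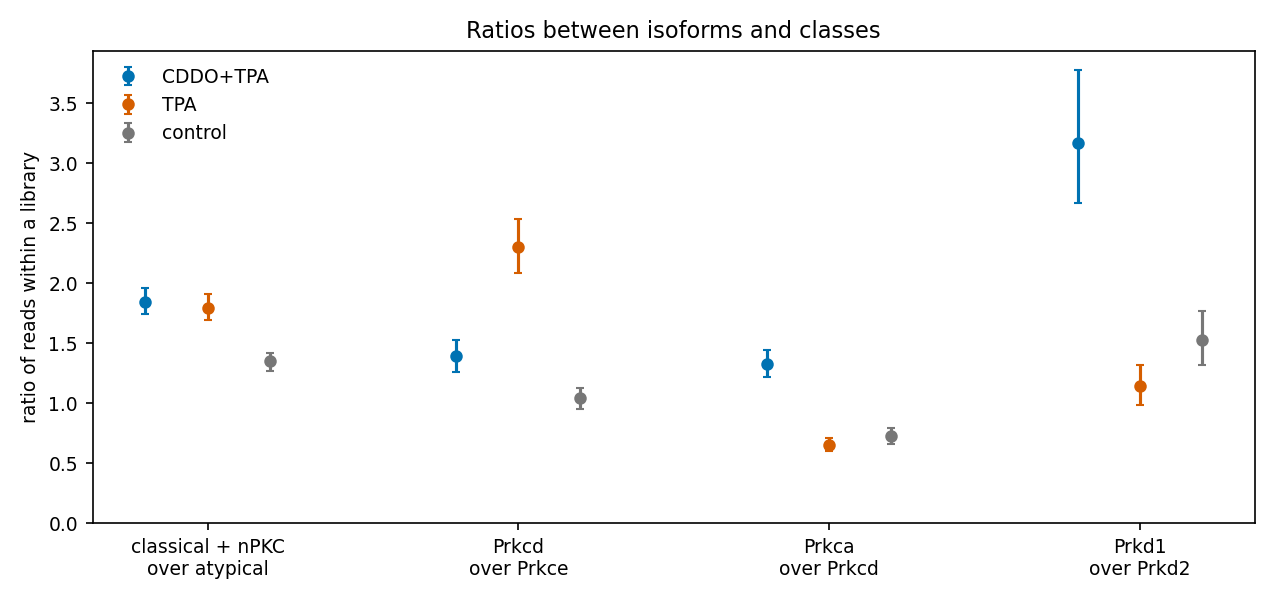
Ratio of reads within a library for classes and pairs of isoforms in the CDDO+TPA, TPA and control libraries, with 95% counting intervals as bars. Prkd1 over Prkd2 is 3.17 in the CDDO+TPA library, and Prkcd over Prkce is 2.30 in the TPA library.

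The counts of list genes below stand beside shares of all compared genes of 9.57% higher and 5.91% lower for TPA over control, 7.87% and 7.78% for CDDO+TPA over TPA, and 8.02% and 3.37% for CDDO+TPA over control, and a count near these shares is no result about a list. Of the other relatives, Prkcq (PKC theta of T cells) had 0, 0 and 1 reads, and the 3 compared genes of that list had medians of 0.31, -0.02 and 0.08 for TPA over control, CDDO+TPA over TPA and CDDO+TPA over control. Pkn3, a PKC-related kinase downstream of phosphoinositide 3-kinase, had 14.1, 12.7 and 4.62 CPM in the CDDO+TPA, TPA and control libraries. Its ratio to control was 3.05 (2.08 to 4.55) for CDDO+TPA and 2.75 (1.87 to 4.12) for TPA. Pkn3 was the only gene of the list past the size rule, in these 2 comparisons, and no gene of it was past the rule for CDDO+TPA over TPA.

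Of 12 genes that mature or turn over PKC, 0 passed the size rule in any comparison, a count near those shares, with medians of 0.11, -0.09 and 0.05 in the same order of comparisons. At 1.5-fold, Mlst8 (1.72-fold, 1.43 to 2.08) and Mapkap1 (1.58-fold, 1.41 to 1.77), subunits of mTOR complexes, were higher for CDDO+TPA over TPA, and Mapkap1 was 1.52-fold lower (1.36 to 1.70) for TPA over control. Pdpk1, the kinase that primes the activation loop of PKC, had 241, 332 and 233 CPM in the CDDO+TPA, TPA and control libraries, and TPA over control was 1.42 (1.34 to 1.51). Phlpp1, a phosphatase that removes the priming phosphate of the hydrophobic motif, had 80.3, 113 and 84.1 CPM, and its relative Phlpp2 had 45.4, 55.9 and 52.9 CPM. Pdpk1 and Phlpp1 were thus highest in the TPA library, by less than the size rule.

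The phospholipase C genes, whose enzymes release diacylglycerol, were compared for 9 of 12 members. For TPA over control 2 were higher and 2 lower (9.57% and 5.91% of all genes) with a median of 0.37, for CDDO+TPA over TPA 0 were higher and 1 lower (7.87% and 7.78%) with a median of -0.25, and for CDDO+TPA over control 1 was higher and 2 lower (8.02% and 3.37%) with a median of 0.25. Plcd1, a calcium-sensitive isoform, had 23.8, 36.0 and 14.2 CPM in the CDDO+TPA, TPA and control libraries, and its ratio of TPA over control was 2.53 (2.03 to 3.17). The others that passed stayed below 5 CPM in every library. Among them, Plch2 reached 1 CPM in the TPA library alone (1.51 CPM) and Plce1 in control alone (1.62 CPM). The filter thus favoured their calls for TPA over control, and the lower call of Plce1 for CDDO+TPA over control. The higher call of Plch2 for CDDO+TPA over control rested on 7 and 0 reads, below 1 CPM in both libraries. Nothing is read from these calls. Among genes with a mean of 10 CPM or more, the calls for TPA over control came to 1 higher and 0 lower. Diacylglycerol kinases, which remove diacylglycerol, had 0 of 6 compared members past the rule in each comparison, again near the shares of all genes, with medians of 0.29, -0.03 and 0.20.

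A list of other C1-domain receptors of diacylglycerol and their relatives had 7 compared genes. For TPA over control 4 were higher and 0 lower (9.57% and 5.91% of all genes) with a median of 1.45. For CDDO+TPA over TPA 0 were higher and 2 lower with a median of -0.17. For CDDO+TPA over control 4 were higher and 0 lower with a median of 1.06. Among genes with a mean of 10 CPM or more, these calls came to 2 higher, 0 lower and 2 higher in the same order. Unc13b, a vesicle priming protein, had 29.0, 45.4 and 5.99 CPM in the CDDO+TPA, TPA and control libraries, and its ratio of TPA over control was 7.59 (5.60 to 10.5). Its relative Unc13d, a granule priming factor that lacks the C1 domain, had 0.887, 7.78 and 1.87 CPM. It was 8.78-fold lower (4.02 to 22.7) in the CDDO+TPA library than in the TPA library. The calls above count Unc13d as higher for TPA over control and lower for CDDO+TPA over TPA, and the medians include it. Unc13c, in contrast, counted 12, 4 and 0 reads, and the interval of its ratio of CDDO+TPA over control began at 2.82. It is one of the 4 higher calls of that comparison. Unc13c reached 1 CPM in the CDDO+TPA library alone (1.52 CPM), so the filter favoured this call and nothing is read from it. Rasgrp4, a Ras exchange factor of mast cells, had 4.05, 10.3 and 3.62 CPM, and Unc13a, the neuronal form, had 13.6, 15.3 and 6.36 CPM. Rasgrp3, another Ras exchange factor, had 8.36, 4.65 and 3.12 CPM and was 2.68-fold higher (1.67 to 4.43) in the CDDO+TPA library than in control. No test compared these genes with the PKC and PKD members.

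Scaffolds and substrates of PKC had 13 of 19 members compared, with 1 higher and 0 lower for TPA over control (median 0.11), 0 and 1 for CDDO+TPA over TPA (median 0.06), and 1 and 0 for CDDO+TPA over control (median 0.41). The member was Akap5, an anchor for PKC and protein kinase A, with 30, 91 and 12 reads in the CDDO+TPA, TPA and control libraries. Its ratio of TPA over control was 7.63 (4.16 to 15.3), and CDDO+TPA was 3.01-fold lower (1.97 to 4.71) than TPA. Marcks, a major PKC substrate named after its values were seen, had 18.4 CPM in the CDDO+TPA library and 36.7 CPM in the TPA library, a log2 fold change of -0.99, and total-count or upper-quartile scaling raised the lower calls of this list to 2. Polarity partners of atypical PKC had 1 higher and 1 lower of 12 compared for TPA over control (median -0.15), 1 and 0 for CDDO+TPA over TPA (median 0.05), and 1 and 1 for CDDO+TPA over control (median -0.11). Pard6a, the PAR6 adaptor that binds atypical PKC, had 9.76, 7.41 and 20.3 CPM, 2.75-fold lower (2.03 to 3.76) in the TPA library than in control. Its paralog Pard6b had 31.7, 44.8 and 21.6 CPM, 2.08-fold higher (1.73 to 2.50) in the TPA library than in control, while the remaining paralog Pard6g had 21.1 CPM in the TPA library and 22.3 CPM in control, a ratio of 0.944 (0.760 to 1.17). Pard3b, a PAR3 paralog, had 23.4, 10.2 and 9.73 CPM and was 2.31-fold higher (1.77 to 3.03) in the CDDO+TPA library than in the TPA library. PKD partners had 1 higher and 0 lower of 9 for TPA over control (median 0.01), and none past the rule for CDDO+TPA over TPA (median 0.20) or CDDO+TPA over control (median 0.27). That gene was Ssh1, a cofilin phosphatase controlled by PKD, with 27.9, 55.5 and 19.8 CPM, 2.80-fold higher (2.33 to 3.37) in the TPA library than in control. In the CDDO+TPA library Ssh1 was 1.99-fold lower (1.69 to 2.35) than in the TPA library, just outside the rule, and total-count or upper-quartile scaling gave 1 lower gene in this list. Rin1 of the same list, named after its values were seen, was 1.96-fold higher (1.81 to 2.12) in that comparison, also just outside the rule.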

How the data were processed

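RNA of JB6 P+ cells was measured in 3 libraries, 1 per group. The authors deposited raw read counts per gene symbol with exon lengths, per the file headers. The counting tool there is featureCounts 1.5.3, with gene models from UCSC for mm10. The headers show primary alignments, no strand option and duplicates removed, and duplicate removal by position can narrow the folds of abundant genes. HISAT2, Picard and DESeq are named without versions in the submitters' processing notes. One column names CDDO without TPA. No sample but CDDO+TPA has CDDO in its labels, so the column was assigned there.

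Libraries were scaled by TMM factors (1.00, 1.02 and 0.978 for CDDO+TPA, TPA and control) with edgeR 4.0.16 in R 4.3.3. DESeq2 1.42.0 supplied alternative size factors. Log2 CPM used a prior count of 2, and folds are ratios of CPM without it. Intervals (95%) are exact Poisson for levels, Clopper-Pearson for ratios and shares of reads, and conditional exact for ratios of ratios. For shares per length, the interval of the read share was converted with the make-up of the other isoforms held fixed. Counting error in that make-up is left out. RPKM rests on the deposited exon length, the union of annotated exons, so unused exons lower it. The procedure was run on simulated Poisson libraries drawn around shared means, with known changes in genes of 10 CPM or more. Such libraries hold no spread between cultures and no changes at low counts, so neither was tested. Members, lists and rules were chosen with earlier results of these data known. Named were all members, list genes past the size rule with 5 CPM or more in some library (at most 6 per list and comparison), Pdpk1, Phlpp1 and Phlpp2. Prkcq, Mlst8, Mapkap1, Marcks, Pard6g, Rin1, Unc13c, Plch2 and Plce1 were named outside this rule. Alternatives covered scaling, prior count, filter, threshold and length. Of the fixed lists, 1 entry is not reported here. Genes nearest in pattern to a member past the size rule are not given, since Prkd3 was that member and had 1, 11 and 4 reads.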

Additional observations from a re-analysis of the deposited data

How the results depend on the processing

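No paired analysis was possible because each group holds 1 library, and no library could be left out. Of 144 pairs of a member log2 fold change and another setting, 138 kept their side of the size rule. The 1.5-fold threshold, counted among these settings, alters the rule and not the values. Another scaling shifted a log2 fold change by at most 0.07. The prior count moved the low gene Prkd3 most. With prior counts of 0.5 and 5 its log2 fold change was -2.93 and -1.41 for CDDO+TPA over TPA (-2.11 at 2), -1.57 and -0.58 for CDDO+TPA over control (-0.99 at 2), and 1.36 and 0.83 for TPA over control (1.12 at 2). Prkd2 (CDDO+TPA over TPA) passed at -1.01 with total-count or upper-quartile scaling. At 1.5-fold, it passed at -0.99, Prkd2 (CDDO+TPA over control) at -0.76, Prkca (CDDO+TPA over control) at 0.74 and Prkce (TPA over control) at -0.84.

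Requiring a mean of 10 CPM gave 381 higher and 476 lower genes for TPA over control, 522 and 227 for CDDO+TPA over TPA, and 507 and 165 for CDDO+TPA over control, since fewer genes were tested. At 1.5-fold the counts were 2052 and 1809, 2017 and 1698, and 1767 and 1152. Of 71 compared pathway list genes, 10 were higher and 3 lower for TPA over control in the main setting. The counts were 1 and 4 for CDDO+TPA over TPA, and 8 and 3 for CDDO+TPA over control. With the 10 CPM filter they were 6 and 1, 1 and 0, and 4 and 1 in the same order. At 1.5-fold there were 13 higher and 6 lower, then 8 higher and 8 lower, and then 15 higher. Without a filter 2 were higher for CDDO+TPA over TPA. These counts describe the lists and were not tested against all genes.

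Without length scaling, Prkca held 28.2%, 20.1% and 15.5% of PKC reads in the CDDO+TPA, TPA and control libraries, Prkcd 21.3%, 30.7% and 21.3%, Prkce 15.3%, 13.3% and 20.6%, and Prkci 34.9% and 35.4% in the CDDO+TPA and TPA libraries. Prkcd then no longer led in the TPA library.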
